A study of Mus musculus with 4 samples.

Results

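Lysosome and V-ATPase genes were followed as a set of 47 of the 32285 genes in the count matrices, chosen by symbol from a list that joins lysosomal membrane proteins, subunits of the proton pump, luminal enzymes and their regulators. All 47 symbols were found, each as 1 row. They fall into 7 roles: 10 lysosomal membrane proteins, 6 subunits of the membrane sector of the V-ATPase and 8 of its catalytic sector, 9 glycan-degrading enzymes, 4 sphingolipid hydrolases or activators, 5 luminal proteins that process or accompany proteins, and 5 genes for a channel, transcriptional regulators and autophagy. The study profiled non-parenchymal liver cells by 10x Genomics 5′ single-cell RNA-seq. Its 4 libraries came from the FAT-MASH regimen at 12 and at 24 weeks and from chow at 12 and at 24 weeks. FAT-MASH is a model of metabolic dysfunction-associated steatohepatitis in which Western diet and sugar water are joined by a low weekly dose of carbon tetrachloride, a liver toxin. All mice were male C57BL/6J, 8 weeks old when the feeding began, and the chow groups received regular chow. Liver tissue was held on ice overnight, digested with collagenase and DNase and passed over a Percoll gradient, so the cells describe this suspension and not the liver. The labels do not give the number of mice behind a library.

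The lysosome is the acidic compartment in which a cell breaks down what it takes up. The V-ATPase pumps protons across its membrane: a cytosolic catalytic sector (V1) splits ATP and drives a ring in the membrane sector (V0). Enzymes in the lumen then digest proteins, glycans and lipids, and transcription factors of the MiT/TFE family (Tfeb, Tfe3, Mitf) bind a short palindromic element in promoters of lysosomal genes. Macrophages are rich in lysosomes because they engulf cells, debris and lipid. In fatty liver, macrophages marked by Trem2 and Lpl gather beside the resident Kupffer cells.

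Each group was a single library, so no test between groups was possible, and every difference below is one between libraries. UMIs (unique molecular identifiers, 1 per captured molecule) of a gene were summed over the cells of a class in each library and expressed per 1000000 UMIs of that class (CPM). Atp6v0c and Cd63 have annotated pseudogenes that are not rows of the matrices, so their counts may hold or lack reads of such copies. The 95% intervals beside ratios and shares cover counting error only. A member was called higher or lower past 1.5-fold, and only where its mean CPM predicted at least 10 UMIs in both sums. Levels were compared within a gene and not between genes, because 5′ capture differs between transcripts. After filtering and removal of doublets, 11523 (MASH) and 13371 (chow) cells were kept at 12 weeks, and 14204 (MASH) and 18312 (chow) at 24 weeks. Their median depth was 2918 and 2930 UMIs in the MASH libraries, against 1882 and 1945 UMIs in chow. Any pair of libraries shared 507 to 796 cell barcodes, 2.67% to 4.02% of the smaller barcode list.

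Cells were clustered without the 47 genes, without other lysosome genes and without cathepsins, so the clusters did not use the values described here. Among 4 macrophage or macrophage-related clusters, Kupffer-like cells were led by Clec4f, Fcna, Slc40a1 and Vsig4. Another cluster was macrophage-like and was led by Mmp12, Lpl, Ms4a7, C1qa and Trem2 (Trem2 Lpl macrophage-like cells). A different one was led by Il1rn and Clec4e. It scored highest on the marker set of lipid-associated macrophages, with 1 marker of that set, Mmp14, among its top 10 genes, and is called by its leading genes. The last, led by Saa3 and Prg4, stayed unnamed and held 129 and 17 cells in MASH at 12 and 24 weeks, against 1 and 0 in chow; the set took 1.46% and 1.64% of its MASH UMIs. The Trem2 Lpl cluster held 109 cells (MASH) and 25 cells (chow) at 12 weeks, and 236 (MASH) and 8 (chow) at 24 weeks. Kupffer-like cells numbered 69 and 28 in the MASH libraries at 12 and 24 weeks, against 7 and 2 in chow, so a class with under 10 cells in a library is not compared there.

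The promoters of 5 members are printed to show the element that MiT/TFE factors bind: 3 members that hold it, and 2 at high levels in Trem2 Lpl macrophage-like cells that do not. RefSeq sequence on GRCm38.p6 was found for 41 of the 47 members, in windows from 250 bases before to 50 bases after a gene start as RefSeq places it. These starts can lie far from the GENCODE gene starts given below, and some genes have several: 34 of the 41 members had a window that holds the GENCODE start. Both strands were searched for TCACGTG. It was present in a window of 12 of the 41 members (29.3%), against 4.29% of 27025 gene symbols with windows of the same length. The shorter CACGTG, contained in it, was in the same 12 members, against 8.09% of all. The longer TCACGTGA, which contains TCACGTG, was in 6 members (14.6%), against 1.12% of all. The 12 members were Lamp1, Cd164, Cln3, Atp6v0b, Atp6v0e, Atp6v1a, Gaa, Gla, Naglu, Sgsh, Lgmn and Mcoln1. For 4 of them, Cln3, Atp6v0e, Atp6v1a and Lgmn, the window with the match does not reach the GENCODE start; for Atp6v0e it lies at a RefSeq start 13165 bases inside the gene. The stretches below start 150 bases upstream of the RefSeq start, run 5′ to 3′ on the gene's strand and end before both the RefSeq start and the GENCODE gene; capitals mark TCACGTG or its reverse complement CACGTGA. Lamp1 (chr8:13159011-13159160, plus strand), which encodes a main protein of the lysosomal membrane, has 4 matches. Atp6v0b (chr4:117887334-117887479, minus strand), a subunit of the membrane ring of the pump, has 2, and Mcoln1 (chr8:3500369-3500456, plus strand), a lysosomal calcium channel, has 1 in the stretch shown. Gpnmb (chr6:49036368-49036517, plus strand) and Psap (chr10:60277478-60277626, plus strand) have none, which says only that these letters are not in the window. The genes themselves lie at chr8:13159161-13175338 (Lamp1), chr4:117884326-117887333 (Atp6v0b), chr8:3500457-3515232 (Mcoln1), chr6:49036546-49070929 (Gpnmb) and chr10:60277627-60302597 (Psap) on GRCm38 in GENCODE, whose starts lie within 62 bases of the RefSeq starts used, and all 5 are protein-coding.
Lamp1: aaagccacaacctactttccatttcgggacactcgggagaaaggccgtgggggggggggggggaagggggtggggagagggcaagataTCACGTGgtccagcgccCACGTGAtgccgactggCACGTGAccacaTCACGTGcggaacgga
Atp6v0b: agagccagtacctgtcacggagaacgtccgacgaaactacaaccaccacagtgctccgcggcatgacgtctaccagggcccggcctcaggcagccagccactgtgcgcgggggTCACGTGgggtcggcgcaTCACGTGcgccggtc
Mcoln1: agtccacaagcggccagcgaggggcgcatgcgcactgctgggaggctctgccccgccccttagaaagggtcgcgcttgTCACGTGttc
Gpnmb: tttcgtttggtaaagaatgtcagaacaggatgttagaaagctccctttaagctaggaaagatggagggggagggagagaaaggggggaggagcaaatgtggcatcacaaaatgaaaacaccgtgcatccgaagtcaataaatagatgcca
Psap: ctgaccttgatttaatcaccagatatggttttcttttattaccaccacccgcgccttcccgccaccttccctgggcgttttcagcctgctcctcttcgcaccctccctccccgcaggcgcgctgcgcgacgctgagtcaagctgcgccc

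Macrophages gave the set a larger part of their UMIs than any lymphoid or parenchymal class. In Trem2 Lpl macrophage-like cells the 47 genes made up 2.47% (MASH) and 1.31% (chow) of UMIs at 12 weeks and 2.55% (MASH) at 24 weeks. Kupffer-like cells had 1.74% and 1.82% in the MASH libraries at 12 and 24 weeks. Il1rn Clec4e cells had 1.96% at 12 weeks in MASH, and 1.70% (MASH) and 1.34% (chow) at 24 weeks. Classical monocyte-like cells lay lower and close together, at 1.29% (MASH) and 1.31% (chow) at 12 weeks and 1.33% (MASH) and 1.26% (chow) at 24 weeks. The share was 0.795% to 0.910% in endothelial-like cells and 0.332% to 0.356% in T-cell-like cells over the 4 libraries. Hepatocyte-like cells were lowest among the named classes shown, at 0.230% to 0.262%. Trem2 Lpl macrophage-like cells ranked first in both MASH libraries as a whole, though not in cells of 1 of the 3 hashtags at 12 weeks (antibody tags added before pooling). In 12-week chow they were level with classical monocyte-like cells. Plasmacytoid dendritic-like cells (1.35%) and an unnamed myeloid cluster led by Ace (1.34%) were no lower there. In 24-week chow the Ace-led cluster had 1.43%, above the 1.34% of Il1rn Clec4e cells, so a high share was not particular to macrophages in chow.

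**Figure D1:**
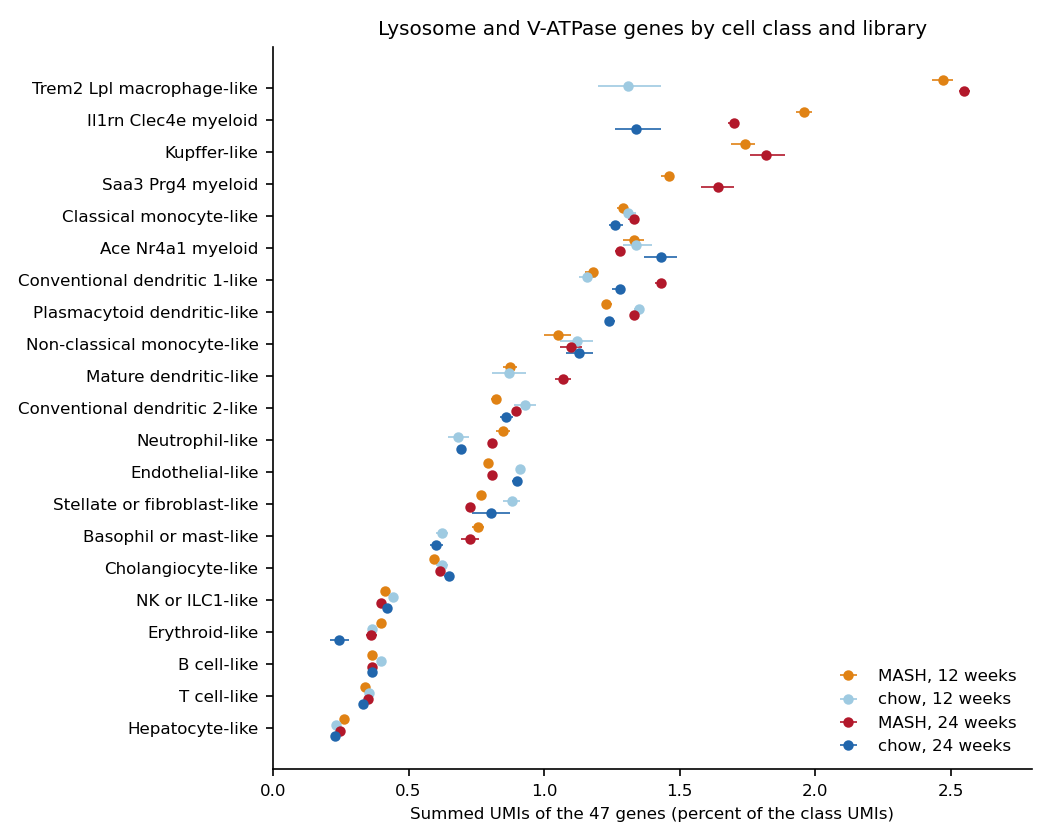
Summed UMIs of the 47 genes as a percent of all UMIs of a cell class (x axis), by class (rows) and library (colours), for classes with at least 10 cells; points are values of 1 library and lines are 95% intervals for counting error. Trem2 Lpl macrophage-like cells of the MASH libraries stand farthest right at 2.47% and 2.55%, and T-cell-like and hepatocyte-like cells stand left at under 0.4%.

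Depth differed between clusters. The median was 2962 (MASH) and 1251 (chow) UMIs in Trem2 Lpl macrophage-like cells at 12 weeks and 5222 (MASH) at 24 weeks, against 2738 and 4424 UMIs in MASH Kupffer-like cells, so the shares were repeated with each cell thinned to 1000 UMIs. Shallower cells were left out. Trem2 Lpl macrophage-like cells then had 1.93% (MASH, 89 cells) and 1.30% (chow, 16 cells) at 12 weeks and 2.18% (MASH, 216 cells) at 24 weeks. Kupffer-like cells had 1.75% and 1.71% in the MASH libraries at 12 and 24 weeks, and Il1rn Clec4e cells had 1.78% and 1.61% there. Il1rn Clec4e cells of 24-week chow had 1.5% (17 cells). Trem2 Lpl macrophage-like cells remained first in both MASH libraries at equal depth, with a smaller lead over Kupffer-like cells at 12 weeks, where the 95% intervals, 1.85% to 2.03% and 1.65% to 1.86%, touch.

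The roles did not contribute alike. Lysosomal membrane proteins took 0.784% and 0.777% of the UMIs of Trem2 Lpl macrophage-like cells in the MASH libraries at 12 and 24 weeks, against 0.443% and 0.413% in Kupffer-like cells and 0.278% and 0.287% in classical monocyte-like cells. Sphingolipid hydrolases and activators took 0.633% and 0.758% in Trem2 Lpl macrophage-like cells, against 0.376% and 0.40% in Kupffer-like cells. The order turned for luminal proteins that process proteins, at 0.327% and 0.308% in Trem2 Lpl macrophage-like cells against 0.378% and 0.407% in Kupffer-like cells. The catalytic sector of the pump lay close together, at 0.200% and 0.168% in Trem2 Lpl macrophage-like cells and 0.151% and 0.171% in Kupffer-like cells. Il1rn Clec4e cells had 0.699% and 0.573% of their UMIs in the sphingolipid group but 0.165% and 0.137% in the luminal group. The channel, regulator and autophagy group was small everywhere, at 0.0587% and 0.0561% in Trem2 Lpl macrophage-like cells and 0.0493% and 0.0455% in Kupffer-like cells.

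**Figure D2:**
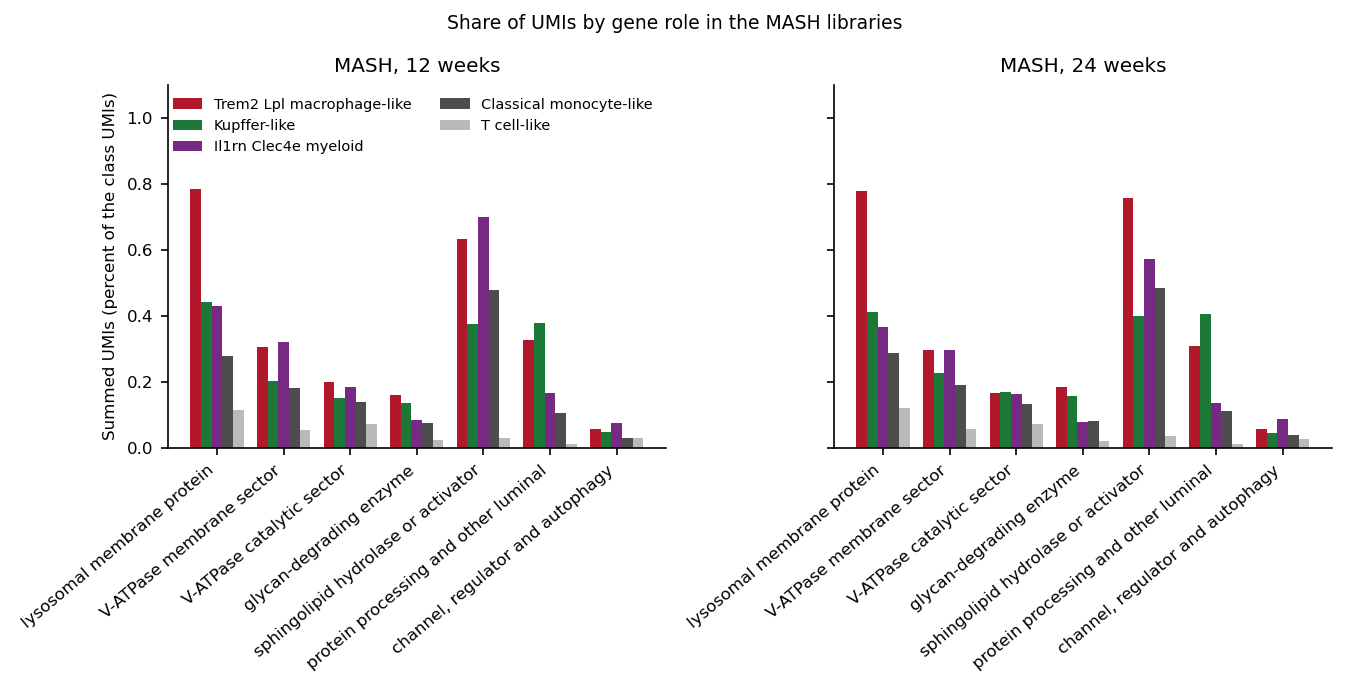
Percent of a class's UMIs (y axis, from 0) taken by each of the 7 gene roles (x axis) in 5 classes, for the 12-week MASH library (left) and the 24-week MASH library (right); each bar is 1 library. The membrane protein and sphingolipid bars are highest in Trem2 Lpl macrophage-like cells at 24 weeks (0.777% and 0.758%), and the luminal bar is highest in Kupffer-like cells (0.378% and 0.407%).

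Set against T-cell-like cells of the same library, which have few lysosomes, the pooled Kupffer-like, Trem2 Lpl and Il1rn Clec4e clusters were higher for most members. At 12 weeks in MASH 39 of 47 members were higher and 3 lower, against 25.7% of all genes tested higher and 32.7% lower. At 24 weeks the counts were again 39 and 3, against 23.5% and 36.9% of all genes tested. The median log2 ratio of the members was 2.16 and 2.08. Laptm5, a lysosomal protein of blood cells, was under the threshold, with 954.9 and 936.9 CPM in the macrophage clusters and 709.1 and 762.8 CPM in T-cell-like cells at 12 and 24 weeks. Atp6v1f, subunit F of the catalytic sector, had 468.3 and 460.8 CPM in the macrophage clusters and 308.1 and 315.5 CPM in T-cell-like cells, ratios of 1.52 and 1.46, past the threshold at 12 weeks alone. Cd164, a sialomucin of endosomes and lysosomes, ran the other way, with 69.2 and 45.0 CPM in the macrophage clusters and 134.5 and 131.4 CPM in T-cell-like cells.

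No single class led for all members. Of 21 classes, Trem2 Lpl macrophage-like cells had the highest CPM for 13 members in the 12-week MASH library and for 11 in the 24-week one, and Kupffer-like cells for 9 and 6. The unnamed Saa3 Prg4 cluster was first for 1 member at 12 weeks and for 7 at 24 weeks, where it held 17 cells. Kupffer-like cells led at both weeks for Asah1, the acid ceramidase, for Lgmn, the protease legumain, for Creg1 and for Man2b1, the lysosomal alpha-mannosidase. Other members led outside macrophages. Grn, the precursor of the granulins, was highest in plasmacytoid dendritic-like cells with 1435 and 1528 CPM in the MASH libraries at 12 and 24 weeks. Laptm4a was highest in stellate- or fibroblast-like cells with 1445 and 1072 CPM. Lamp2, the partner of Lamp1, was highest in endothelial-like cells with 574.2 and 463.8 CPM, and Gm2a, the activator of ganglioside breakdown, in conventional dendritic 1-like cells with 919.7 and 1067 CPM.

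Gpnmb differed widely between clusters. It encodes a glycoprotein of endosomes and lysosomes known from lipid-laden macrophages. In Trem2 Lpl macrophage-like cells it had 2701 CPM (MASH) and 0 CPM (chow) at 12 weeks, and 1847 CPM (MASH) at 24 weeks. Kupffer-like cells had 103.4 and 78.94 CPM in the MASH libraries at 12 and 24 weeks, and Il1rn Clec4e cells had 517 and 197.2 CPM. Classical monocyte-like cells had 3.6 and 6.74 CPM and T-cell-like cells, which are not known to express it, 6.0 and 5.28 CPM. Neutrophil-like cells had 142.8 and 10.84 CPM. Over a whole library the Trem2 Lpl cluster was the highest of the classes in both MASH libraries, but not among cells of 1 of the 3 hashtags at 12 weeks. At 1000 UMIs per cell, Gpnmb was detected in 36.0% (MASH) and 0% (chow, 16 cells) of Trem2 Lpl macrophage-like cells at 12 weeks and in 34.7% (MASH) at 24 weeks, against 8.06% and 7.41% of Kupffer-like cells in MASH and 0.520% to 0.697% of T-cell-like cells. The UMIs were uneven: at 12 weeks in MASH 42 of 109 cells had any, and 1 cell held 452 of the 1487 (30.4%). At 24 weeks in MASH 118 of 236 cells had any, and the highest cell held 476 of 3328 (14.3%).

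Against Kupffer-like cells of the same library, Trem2 Lpl macrophage-like cells were higher for a part of the set and lower for another. At 12 weeks in MASH, 17 of 41 members past the count filter were higher and 3 lower, against 13.3% of all genes tested higher and 23.5% lower. At 24 weeks 11 of 37 were higher and 4 lower, against 11.4% and 23.0%. With thinned cells 6 of 26 and 4 of 16 members were higher at 12 and 24 weeks, with medians of −0.14 and −0.04 on the log2 scale. For these thinned counts the share of all genes called was not counted. Unthinned, the members' median log2 ratio was 0.16 and −0.03, against −0.11 and −0.15 over all genes tested. Higher members included 4 of 6 membrane-sector subunits at 12 weeks and 2 of 6 at 24 weeks, and 2 of the 3 sphingolipid members past the filter at both weeks. Of the 5 luminal proteins, none was higher at either week and 2 were lower at 24 weeks.

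Gpnmb was 26.1-fold (18.6 to 37.9) higher at 12 weeks and 23.4-fold (13.7 to 44.0) higher at 24 weeks. With cells thinned to 1000 UMIs the ratios were 8.04 and 14.2. Cd63, a tetraspanin of late endosomes, had 1359 and 1768 CPM in Trem2 Lpl macrophage-like cells against 203.7 and 248.9 CPM in Kupffer-like cells, ratios of 6.67 (5.19 to 8.70) and 7.10 (5.22 to 9.92), the second 12.3 with thinned cells. Cd68, a glycoprotein of macrophage endosomes, had 959.2 and 1364 CPM against 501.7 and 771.1 CPM, ratios of 1.91 and 1.77. These 3 were the membrane proteins called higher at each week. Lamp1 did not differ past the threshold, with 1016 and 974.7 CPM against 1201 and 935.1 CPM.

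Within the pump, the d2 and a1 subunits of the membrane sector had few UMIs in Kupffer-like cells, so the size of their ratios is poorly set, and they passed the filter, which uses the mean of both clusters, through their level in Trem2 Lpl macrophage-like cells. Atp6v0d2, the d2 isoform known from osteoclasts and macrophages, had 243.4 and 198.7 CPM in Trem2 Lpl macrophage-like cells against 3.041 and 12.14 CPM in Kupffer-like cells. Those Kupffer-like values were 1 and 2 UMIs, and the ratios of 80.1 (14.1 to 3180) and 16.4 (4.50 to 136) have wide intervals. Atp6v0a1 had 119.9 and 168.2 CPM against 33.45 and 24.29 CPM, which were 11 and 4 UMIs, ratios of 3.58 (1.88 to 7.53) and 6.92 (2.68 to 25.6). Atp6v0c, which forms the proteolipid ring, had ratios of 1.62 and 1.37, past the threshold at 12 weeks alone. In the catalytic sector, Atp6v1a, the subunit that binds ATP, had 283.4 and 169.3 CPM against 152.0 and 91.08 CPM, a ratio of 1.86 at both weeks, while Atp6v1b2 had ratios of 1.59 and 0.902.

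Among the enzymes, Psap, the precursor of the saposins that help to degrade sphingolipids, had 5695 and 6993 CPM in Trem2 Lpl macrophage-like cells against 3208 and 3528 CPM in Kupffer-like cells. Its ratios were 1.78 (1.66 to 1.91) and 1.98 (1.82 to 2.16), the first 1.49 and under the threshold with thinned cells. Gusb, the beta-glucuronidase, was 2.40- and 2.17-fold higher, and Hexa, a subunit of beta-hexosaminidase, 1.6- and 1.51-fold. Members called lower at both weeks were Scarb2, the receptor that carries glucocerebrosidase to lysosomes, with 105.4 and 97.14 CPM against 285.8 and 200.4 CPM, and Cd164, with 34.5 and 37.75 CPM against 203.7 and 139.7 CPM. Lgmn had ratios of 0.865 and 0.577. Thus the 2 clusters differed in opposite directions for members of 1 role, the membrane proteins, at both weeks.

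**Figure D3:**
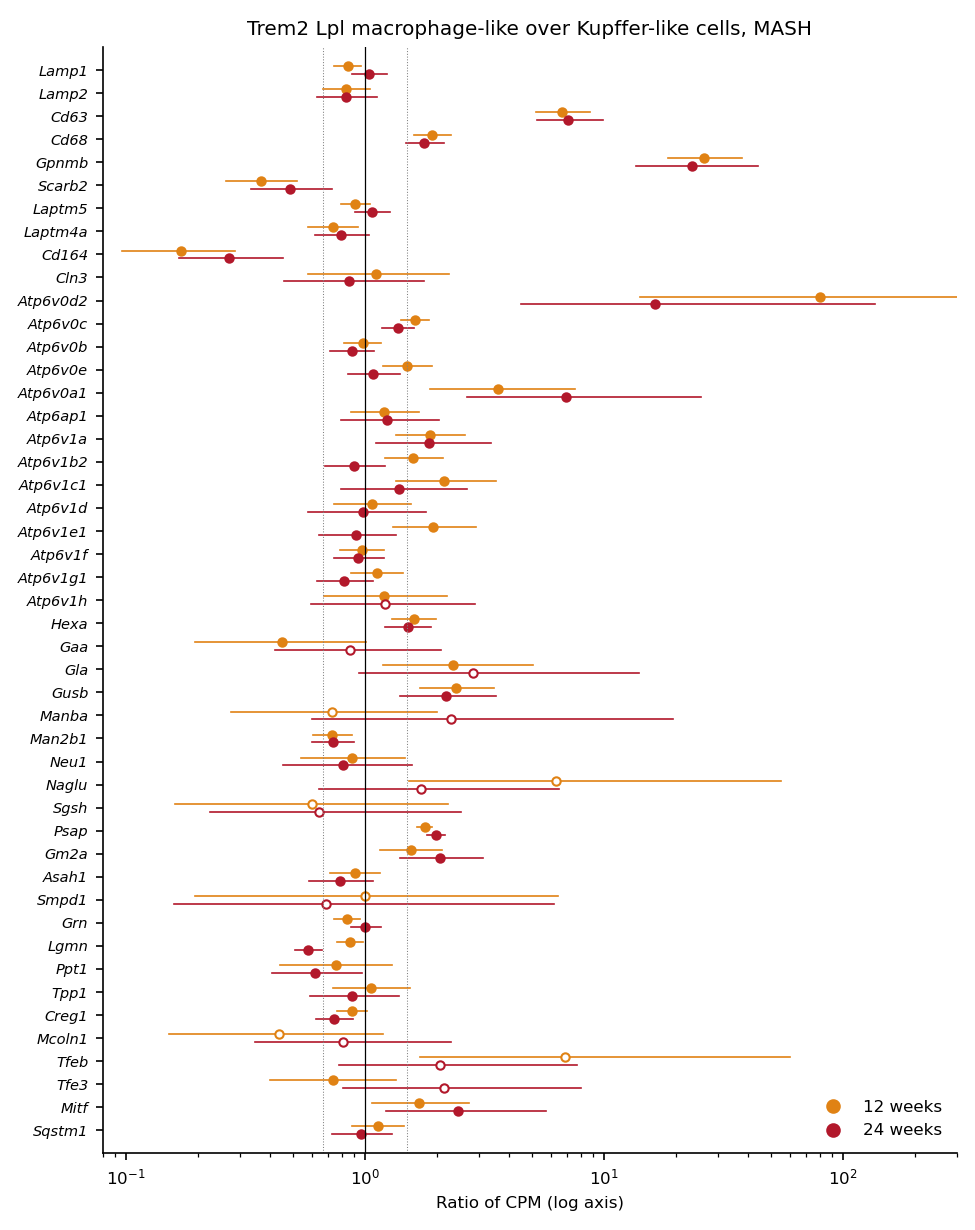
Ratio of CPM in Trem2 Lpl macrophage-like over Kupffer-like cells (x axis, log scale) for each of the 47 genes (rows, by role), in the MASH libraries at 12 weeks (orange) and 24 weeks (red). Lines are 95% counting intervals cut at the axis ends, open points missed the count filter, and dotted lines mark 1.5-fold either way. Gpnmb, Cd63, Atp6v0d2 and Atp6v0a1 lie right of the dotted line at both weeks and Scarb2 and Cd164 left of it.

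Against classical monocyte-like cells, the Trem2 Lpl cluster was higher for 21 of 43 members at 12 weeks in MASH and none was lower, against 18.6% of all genes tested higher and 27.1% lower. At 24 weeks 21 of 47 were higher and none lower, against 20.3% and 24.9%. Lgmn differed by 9.91- and 8.23-fold, Hexa by 2.44- and 3.11-fold and Grn by 2.29- and 2.31-fold, whereas Psap differed by 1.35- and 1.64-fold. Against Il1rn Clec4e cells, 16 of 44 members were higher and 1 lower at 12 weeks (18.0% and 20.9% of all genes tested), and 21 of 46 higher and 1 lower at 24 weeks (20.0% and 16.5%). Il1rn Clec4e cells had more of Atp6v0c, with 1881 and 1803 CPM against 1410 and 1459 CPM in Trem2 Lpl macrophage-like cells, a difference under the threshold.

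Within each MASH library the Trem2 Lpl cluster also varied by hashtag, the antibody tag added to cells before pooling. No label explains what a tag stands for, so each is treated as a part of a library and not as an animal. In the 12-week library, cells with hashtags 4, 5 and 6 gave the set 2.67%, 1.59% and 2.74% of UMIs. Gpnmb had 3180, 365 and 3600 CPM in the same order, and Psap had 6120, 3010 and 6730 CPM. Cells with hashtag 5 were lowest for both genes and for the set. Among cells of that hashtag the Trem2 Lpl cluster was not first: the set took 1.59% of its UMIs, against 1.79% in Kupffer-like and 1.99% in Il1rn Clec4e cells. Gpnmb there had 365 CPM (36 UMIs in 25 cells), against 190 CPM in Kupffer-like and 441 CPM in Il1rn Clec4e cells. In hashtags 4 and 6 the Trem2 Lpl cluster was first of these 3 clusters for both. Without hashtag 5, chosen after these values were seen, Gpnmb was 60.6-fold higher than in Kupffer-like cells, against 26.1-fold with it. Hashtag 5 was left out of both clusters, and it held 23 of the 34 Gpnmb UMIs of Kupffer-like cells. The larger ratio thus also reflects a lower Kupffer-like value on few UMIs. Over the 8 hashtags of the 24-week MASH library the set's share ran from 2.01% to 3.18%, Gpnmb from 765 to 4060 CPM and Lamp1 from 740 to 1270 CPM. The share was above that of Kupffer-like and Il1rn Clec4e cells in each of the 8, with 1 to 8 Kupffer-like cells per hashtag. Gpnmb varied more between hashtags than Lamp1 in both libraries.

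**Figure D4:**
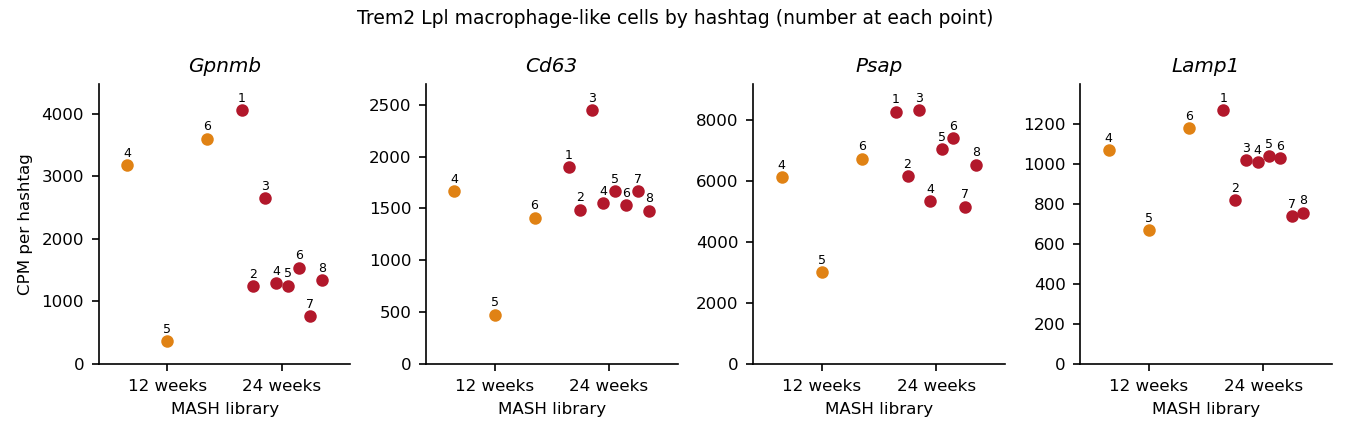
CPM of Gpnmb, Cd63, Psap and Lamp1 (y axes, from 0) in Trem2 Lpl macrophage-like cells, by hashtag (points, with the hashtag number) in the MASH libraries at 12 and 24 weeks. Hashtag 5 of the 12-week library is low in all 4 genes, with 365 CPM for Gpnmb against 3180 and 3600 CPM in hashtags 4 and 6.

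The comparison of diets asked whether macrophages of MASH livers differ from those of chow livers in these genes. Few cells of the macrophage clusters were kept in chow: the Kupffer-like, Trem2 Lpl and Il1rn Clec4e clusters together held 288 (MASH) and 39 (chow) cells at 12 weeks and 468 (MASH) and 27 (chow) at 24 weeks. Their median depth was 4877 (MASH) and 1769 (chow) UMIs at 12 weeks and 5578 (MASH) and 4116 (chow) at 24 weeks. The mix differed as well. Of the chow cells, 25 of 39 were Trem2 Lpl macrophage-like at 12 weeks, and 17 of 27 were Il1rn Clec4e cells at 24 weeks. In the pool, the set made up 2.09% (MASH) and 1.58% (chow) of UMIs at 12 weeks and 2.17% (MASH) and 1.33% (chow) at 24 weeks. At 1000 UMIs per cell the shares were 1.83% (MASH) and 1.46% (chow) at 12 weeks and 1.89% (MASH) and 1.36% (chow) at 24 weeks. A set of 15 stress response genes took 1.05% (MASH) and 1.40% (chow) of UMIs at 12 weeks and 1.45% (MASH) and 2.37% (chow) at 24 weeks, and its part in the differences was not tested.

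At 12 weeks 7 of 27 members past the filter were higher in MASH macrophages and none lower, against 15.1% of all genes tested higher and 13% lower. At 24 weeks 13 of 27 were higher and none lower, against 13.9% and 25.4%. The filter uses the mean of both diets, so a gene could pass through its MASH level. Gpnmb passed in this way at 24 weeks with no chow UMI. The members' median log2 ratio was 0.26 and 0.55, against 0.01 and −0.17 over all genes tested. The TMM factors, which scale libraries on genes of moderate change, were −0.21 and −0.30 on the log2 scale, and subtracting them raised the members' medians to 0.47 and 0.85. With the MASH clusters weighted as in chow, an alternative added after the mix was seen, the medians were 0.28 and 0.50. With cells thinned to 1000 UMIs, 2 of 15 members were higher at 12 weeks and 4 of 12 at 24 weeks, with medians of 0.08 and 0.28. The share of all genes called was not counted with thinned cells, so these counts cannot be set against a background. By role, all 3 luminal proteins past the filter and 5 of 7 membrane proteins were higher at 24 weeks, whereas 1 of 3 and 2 of 8 were higher at 12 weeks. Of the 26 members past the filter at both weeks, 17 had ratios above 1 at both, 1 below 1 at both, and 8 moved in opposite directions.

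The 6 members with the largest difference held at both weeks came from 4 roles. Gpnmb had 1170 (MASH) and 253.5 (chow) CPM at 12 weeks, a ratio of 4.62 (3.04 to 7.38) that was 2.50 with thinned cells, 2.18 with no doublet removal and 3.03 with the stricter cell filter, and 1089 (MASH) and 0 (chow) CPM at 24 weeks. With no doublet removal the pool also took in the Saa3 Prg4 cluster. All 22 Gpnmb UMIs of the 12-week chow pool came from 1 cell. With 3606 UMIs in MASH and none in chow, the 24-week difference was 37.5-fold, taking 3 counts in the chow pool as the floor. The lower 95% counting limit of the ratio was 30.5. Cd63 had 851.4 (MASH) and 426.3 (chow) CPM at 12 weeks, a ratio of 2.0 (1.44 to 2.85), and 1219 (MASH) and 106.6 (chow) CPM at 24 weeks, a ratio of 11.4 (6.38 to 22.9) that was 4.98 with thinned cells. A single cell carried 27 of the 37 Cd63 UMIs of the 12-week chow pool and another 10 of the 11 at 24 weeks. So the chow level of both genes rested on single cells at 12 weeks.

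Grn had 932.2 (MASH) and 610.6 (chow) CPM at 12 weeks and 979.5 (MASH) and 271.3 (chow) CPM at 24 weeks, ratios of 1.53 (1.16 to 2.05) and 3.61 (2.49 to 5.44). Among pump subunits, Atp6v1b2 had 275.4 (MASH) and 103.7 (chow) CPM at 12 weeks and 273.4 (MASH) and 126.0 (chow) CPM at 24 weeks, ratios of 2.66 (1.39 to 5.85) and 2.17 (1.26 to 4.09). Atp6v1a had 212.4 (MASH) and 57.61 (chow) CPM at 12 weeks and 136.6 (MASH) and 96.9 (chow) CPM at 24 weeks, and passed the threshold at 12 weeks alone, with ratios of 3.69 and 1.41. Both are subunits of the ATP-binding head of V1. Their chow values rested on 9 and 13 UMIs (Atp6v1b2) and 5 and 10 UMIs (Atp6v1a) at 12 and 24 weeks. Atp6ap1, an accessory subunit with 11 and 8 chow UMIs, had ratios of 1.5 (0.828 to 3.04) and 1.89 (0.950 to 4.39), whose intervals include 1. The 1 member below 1 at both weeks, Atp6v1f, had ratios of 0.991 and 0.970, which TMM scaling moved to 1.15 and 1.19. The 12-week ratios of Grn and Atp6ap1 were 0.938 and 0.817 with thinned cells, and that of Cd63 was 1.00 with no doublet removal. The 24-week ratios of Atp6v1b2 and Atp6v1a were 1.11 and 3.14 with thinned cells, below the count filter there.

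Lamp1 had 967.1 (MASH) and 760.4 (chow) CPM at 12 weeks and 849.9 (MASH) and 562.0 (chow) CPM at 24 weeks. Its ratio was 1.27 (0.994 to 1.65) at 12 weeks, under the threshold, and 1.51 (1.17 to 2.0) at 24 weeks, just past it, but 0.998 with thinned cells. The share of cells with a Lamp1 UMI at 1000 UMIs per cell was 59.5% (MASH) and 48.1% (chow) at 12 weeks and 48.5% (MASH) and 48.1% (chow) at 24 weeks, with 7.39% to 8.84% in T-cell-like cells. Hence the 24-week difference in CPM was not matched by a difference in the share of cells. Psap had 5490 (MASH) and 3871 (chow) CPM at 12 weeks and 6056 (MASH) and 4457 (chow) CPM at 24 weeks, ratios of 1.42 (1.27 to 1.59) and 1.36 (1.24 to 1.49). Several luminal enzymes differed at 24 weeks alone: Lgmn by 1.17- and 2.97-fold at 12 and 24 weeks, Creg1 by 0.875- and 2.66-fold, and Hexa by 0.984- and 2.45-fold. The 24-week chow pool consisted mostly of Il1rn Clec4e cells, which in 24-week MASH had 364.7 CPM of Lgmn, against 953.1 CPM in Trem2 Lpl macrophage-like cells of that library. The part of the cluster mix in these differences was not tested.

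**Figure D5:**
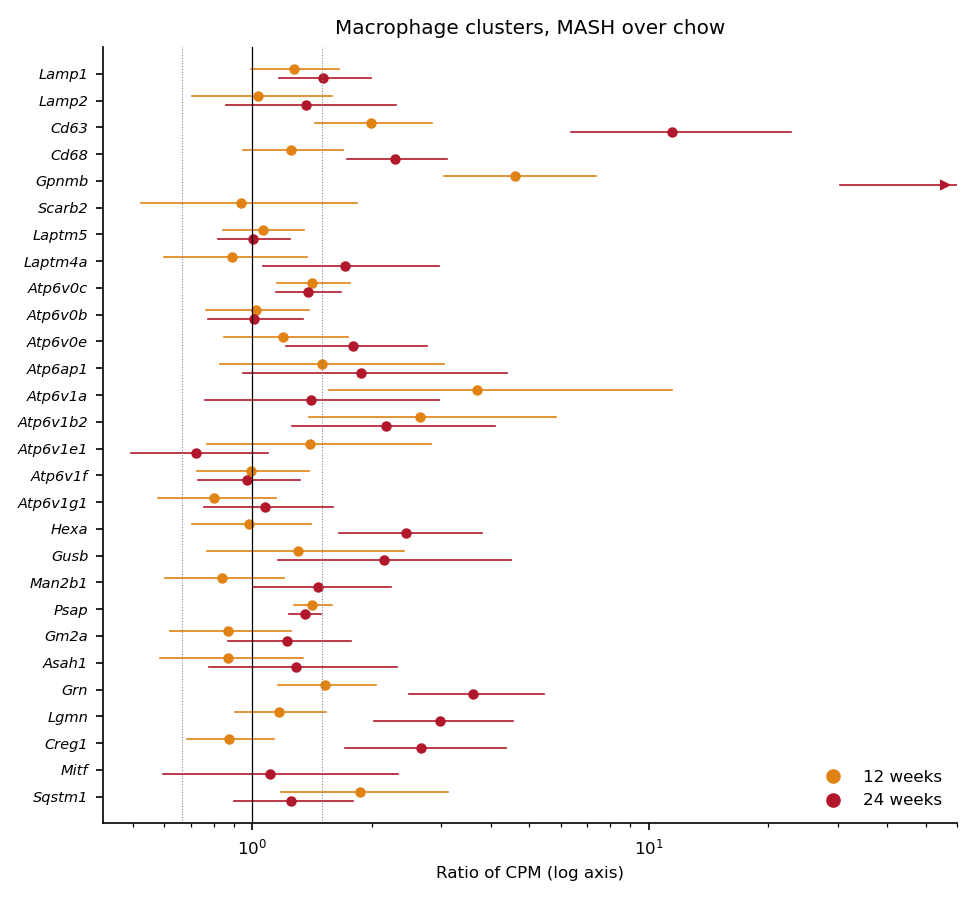
Ratio of CPM in MASH over chow (x axis, log scale) in the pooled Kupffer-like, Trem2 Lpl and Il1rn Clec4e clusters, for members past the count filter (rows, by role) at 12 weeks (orange) and 24 weeks (red); 1 library per diet and week. Lines are 95% counting intervals, dotted lines mark 1.5-fold, and the arrow marks Gpnmb with no chow UMI at 24 weeks. Gpnmb, Cd63, Grn and Atp6v1b2 lie right of the dotted line at both weeks and no member lies left of it.

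Single clusters could be compared with chow in 2 cases. In Trem2 Lpl macrophage-like cells at 12 weeks, 6 of 21 members were higher in MASH and none lower, against 19.1% and 15.8% of all genes tested. They were Lamp1 (1.61-fold), Cd63 (5.74-fold), Cd68 (2.43-fold), Gpnmb, Psap (2.30-fold) and Grn (2.06-fold). Gpnmb passed the filter through its MASH level. Median depth was 2962 (MASH) and 1251 (chow) UMIs, and these ratios were not repeated with thinned cells or by hashtag. In MASH cells of hashtag 5 the set took 1.59% of UMIs, against 2.67% and 2.74% in hashtags 4 and 6 and 1.31% in chow. Gpnmb had 1487 UMIs in 109 MASH cells and none in 25 chow cells, which is 34.2-fold taking 3 counts in chow as the floor. This figure is not a counting limit, and a single MASH cell carried a large part of the UMIs. Stress response genes took 0.848% (MASH) and 1.31% (chow) of UMIs in this cluster, and their part was not tested. In Il1rn Clec4e cells at 24 weeks, 10 of 21 members were higher and none lower, against 13% and 20.5%. Cd63 had 601.4 (MASH) and 142.0 (chow) CPM there, a ratio of 4.24 (2.36 to 8.52), while Psap had 5109 (MASH) and 4892 (chow) CPM.

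The MiT/TFE factors were measured at low levels. In the macrophage pool Tfeb had 44.07 (MASH) and 23.04 (chow) CPM at 12 weeks and 54.99 (MASH) and 87.21 (chow) CPM at 24 weeks, below the count filter. Tfe3 had 53.86 (MASH) and 57.61 (chow) CPM at 12 weeks and 51.66 (MASH) and 48.45 (chow) CPM at 24 weeks, also below it. Mitf had 116.9 (MASH) and 46.08 (chow) CPM at 12 weeks, below the filter, and 107.3 (MASH) and 96.9 (chow) CPM at 24 weeks, a ratio of 1.11 (0.595 to 2.33). None of the 3 differed between diets in a way this depth could resolve. Within the MASH libraries Mitf had 138.1 and 118.8 CPM in Trem2 Lpl macrophage-like cells against 82.1 and 48.58 CPM in Kupffer-like cells at 12 and 24 weeks, ratios of 1.68 (1.07 to 2.71) and 2.45 (1.22 to 5.74). With thinned cells the 12-week ratio was 0.958, on the other side of 1, and the 24-week Kupffer-like value rested on 8 UMIs, so no direction is drawn for Mitf. Sqstm1, the autophagy receptor p62, had 408.3 (MASH) and 218.9 (chow) CPM in the pool at 12 weeks and 437.5 (MASH) and 348.8 (chow) CPM at 24 weeks, and Mcoln1 had no UMI in either chow pool. Atp6v0d2 had 86.31 (MASH) and 69.13 (chow) CPM at 12 weeks and 111.2 (MASH) and 0 (chow) CPM at 24 weeks, below the filter at both.

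Classical monocyte-like cells, the blood-derived cells with 211 (MASH) and 155 (chow) cells at 12 weeks and 318 (MASH) and 144 (chow) at 24 weeks, differed by diet in few members. At 12 weeks none of 40 members was higher and 1 was lower, against 8.06% and 7.76% of all genes tested. At 24 weeks 3 of 42 were higher and 2 lower, against 8.56% and 7.09%, which is near the background. The members' median log2 ratio was 0.01 and 0.10. The largest difference held at both weeks was in Lamp2, with 295.0 (MASH) and 217.3 (chow) CPM at 12 weeks and 267.0 (MASH) and 184.3 (chow) CPM at 24 weeks, ratios of 1.36 (1.13 to 1.64) and 1.45 (1.20 to 1.75), under the threshold. Hexa (1.37 and 1.23), Atp6v1e1 (1.30 and 1.31) and the sialidase Neu1 (1.17 and 1.20) followed, and Atp6v1c1 (0.785 and 0.810), Tfe3 (0.664 and 0.918), Sqstm1 (0.916 and 0.930) and Atp6v1h (0.950 and 0.860) had ratios below 1 with intervals that included 1 at both weeks. Of these only Tfe3 at 12 weeks was past 1.5-fold. Lamp1 had 677.1 (MASH) and 767.3 (chow) CPM at 12 weeks and 680.5 (MASH) and 637.8 (chow) CPM at 24 weeks. The called members at 24 weeks were Ppt1, a thioesterase (2.38-fold), Gusb (1.81-fold) and Lgmn (1.56-fold) higher, and Cd63 (0.334) and Cd164 (0.449) lower. The Cd63 value rested on 38 chow UMIs in 3 cells.

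In neutrophil-like cells the set took a larger share of UMIs in MASH and in endothelial-like cells a smaller one. A further cluster of 2891 cells scored highest on endothelial markers but was called mixed, and it is not part of the endothelial-like class. The share in neutrophil-like cells was 0.848% (MASH) and 0.683% (chow) at 12 weeks and 0.809% (MASH) and 0.693% (chow) at 24 weeks. At 1000 UMIs per cell it was 0.854% (MASH) and 0.700% (chow) at 12 weeks and 0.926% (MASH) and 0.716% (chow) at 24 weeks. Neutrophil-like cells had 11 of 30 members higher and 2 lower in MASH at 12 weeks, against 11.5% and 13.4% of all genes tested, and 10 of 43 higher and 1 lower at 24 weeks, against 19.8% and 9.28%. Cd63 had 474.0 (MASH) and 261.0 (chow) CPM there at 12 weeks and 421.5 (MASH) and 257.3 (chow) CPM at 24 weeks, ratios of 1.82 (1.32 to 2.55) and 1.64 (1.47 to 1.82). For Psap the 12-week ratio was 2.31 (1.89 to 2.85), while the 24-week one was 1.17 (1.09 to 1.26), under the threshold. Endothelial-like cells had 1 of 44 members higher and 2 lower at 12 weeks, against 6.71% and 8.82%, and 1 of 41 higher and 4 lower at 24 weeks, against 9.51% and 10.4%. The set's share was lower in MASH endothelial-like cells at both weeks, at 0.795% (MASH) and 0.910% (chow) at 12 weeks and 0.809% (MASH) and 0.899% (chow) at 24 weeks, and at 1000 UMIs per cell at 0.836% (MASH) and 0.970% (chow) at 12 weeks and 0.858% (MASH) and 0.937% (chow) at 24 weeks. Gpnmb had 72 (MASH) and 0 (chow) UMIs in neutrophil-like cells at 12 weeks and 27 (MASH) and 0 (chow) at 24 weeks. At 24 weeks Scarb2 had 199.6 (MASH) and 352.8 (chow) CPM in endothelial-like cells, a ratio of 0.566 (0.481 to 0.665).

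T-cell-like cells had 3 of 47 members higher and 3 lower at 12 weeks, against 8.46% and 7.24% of all genes tested, and 6 of 47 higher and none lower at 24 weeks, against 10.5% and 6.48%. Cd63, Cd68 and Lgmn were higher at both weeks, at levels of 7.20 to 10.8 CPM in MASH and 1.62 to 5.32 CPM in chow. In the macrophage pool of the same MASH libraries Cd68 had 737.6 and 1112 CPM. MASH libraries held more cells of the pooled macrophage clusters, at 2.50% and 3.29% of kept cells against 0.292% and 0.147% in chow. Mixed clusters are not in these percentages, among them 450 cells that scored highest on general macrophage markers, and their split by diet is not given. The part of free RNA in the values of T-cell-like cells was not tested. Over all kept cells 11 of 47 members were higher at 12 weeks and 19 of 47 at 24 weeks, none lower, against 14.6% and 7.77% of all genes tested at 12 weeks and 21.2% and 9.15% at 24 weeks. More macrophages and more RNA per cell cannot be told apart in such whole-suspension sums.

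Between 12 and 24 weeks on the regimen the set changed little in macrophages. In Trem2 Lpl macrophage-like cells 3 of 45 members were at least 1.5-fold higher at 24 weeks and 3 lower, against 8.91% and 13.9% of all genes tested. Gpnmb had 1847 CPM at 24 weeks against 2701 CPM at 12 weeks, a ratio of 0.684 (0.643 to 0.727), and Atp6v1a 169.3 CPM against 283.4 CPM, a ratio of 0.597 (0.491 to 0.729). A single cell carried a large part of the 12-week Gpnmb UMIs, which the counting interval does not reflect. Cd68 (1.42), Cd63 (1.30) and Psap (1.23) were above 1 and under the threshold. In Kupffer-like cells 4 of 34 were higher and 3 lower, against 14.3% and 15.4%. In Il1rn Clec4e cells none of 44 was higher and 6 were lower, against 9.73% and 16.6%, and Gpnmb had 197.2 CPM at 24 weeks against 517.0 CPM at 12 weeks, a ratio of 0.381 (0.325 to 0.447). Atp6v1a had ratios of 0.599 (0.312 to 1.08) in Kupffer-like cells, on 15 UMIs at 24 weeks against 50 at 12 weeks and with an interval that includes 1, and of 0.526 (0.411 to 0.671) in Il1rn Clec4e cells.

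A list of 74 other lysosome genes outside the set was counted the same way in the macrophage pool. At 12 weeks 1 of 14 past the filter was higher in MASH and none lower, against 15.1% of all genes tested higher and 13% lower, and at 24 weeks 9 of 18 were higher and none lower, against 13.9% and 25.4%. Their median log2 ratio was −0.01 and 0.55. Of the 14 past the filter at both weeks, 6 had ratios above 1 at both, none below 1 at both and 8 in opposite directions. Lipa, the lysosomal acid lipase that frees cholesterol and fatty acids, had 540.5 (MASH) and 184.3 (chow) CPM at 12 weeks and 440.2 (MASH) and 48.45 (chow) CPM at 24 weeks, ratios of 2.93 (1.80 to 5.15) and 9.09 (3.88 to 28.0). The chow values of Lipa rested on 16 and 5 UMIs. Tcirg1, a further membrane-sector subunit of the V-ATPase, had ratios of 1.32 and 1.41, and Lamtor4, which anchors nutrient signalling at the lysosome, 1.22 and 1.40.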

How the data were processed

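Single-cell RNA-seq (10x Genomics 5′) of liver non-parenchymal cells was deposited as 4 matrices of raw UMI counts per gene and barcode, made by the authors with Cell Ranger 5.0.1 (3 libraries) and 4 (12-week MASH), per the file headers. Builds mm10 and GRCh38 are listed in the submitters' processing notes, without their roles. Kept cells carried 45804847 (MASH) and 32765367 (chow) UMIs at 12 weeks and 60973158 (MASH) and 45088687 (chow) at 24 weeks. The 12-week MASH matrix had 737280 columns that did not match its list of 19014 barcodes, so its 19091 columns with at least 500 UMIs were used.

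Cells had at least 500 gene UMIs, at least 300 genes and at most 15% mitochondrial UMIs. Doublets (27.5% to 33.1% per library) were cells called by Scrublet in scanpy 1.11.5 or carrying several hashtags, by a Gaussian mixture. Clustering used 2000 variable genes without the listed genes, 30 principal components, 15 neighbours and Leiden resolution 1 (leidenalg 0.10.2, igraph 0.11.9, scikit-learn 1.9.0), repeated on myeloid clusters. Classes were named "-like" from marker sets. Clusters with markers of several classes were called mixed and left out of the classes. They included 2891 cells that scored highest on endothelial markers. They also included 450 that scored highest on general macrophage markers, with T-cell markers among their leading genes. Limits for leaving clusters unnamed were set after the clusters were seen. Ratios and intervals (exact Poisson, binomial and conditional binomial) used numpy 2.4.6, pandas 2.3.3 and scipy 1.17.1 under Python 3.11.15, the plots matplotlib 3.10.9; the code was tested on simulated data. Each group was 1 library and cells are not replicates, so no p-value was computed.

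The members and lists were chosen with earlier results of these data known. Members given in full were those with the largest lower weekly fold in 1 direction, up to 6 each way in macrophages and 4 in monocytes, and Lamp1, Gpnmb, Atp6v0d2, Tfeb, Tfe3 and Mitf, and up to 3 other lysosome genes; others illustrate counts and were chosen after their values were seen. Alternatives were other cell filters, doublet handling, thinning, TMM factors, count filters, a 2-fold threshold, resolution 0.5, hashtag subsets and the chow cluster mix. Promoters came from RefSeq, gene starts and exons from GENCODE on GRCm38. Fold differences in 5′ UMI counts can reflect transcript start use as well as level.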

Additional observations from a re-analysis of the deposited data

Results flagged for a closer look

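Some members had ratios of MASH over chow past 1.5-fold on opposite sides of 1 at the 2 weeks. Each had a counting interval that left out 1. The 47 members were screened for this in 17 classes, and the share of all genes that meet the rule was not counted. The difference between the weeks was not tested, and 1 library stands behind each value. Psap in basophil- or mast-like cells had 2.82 (2.22 to 3.61) at 12 weeks and 0.639 (0.430 to 0.932) at 24 weeks. Cd63 in NK- or ILC1-like cells had 0.641 (0.475 to 0.867) at 12 weeks and 1.63 (1.28 to 2.09) at 24 weeks. Lgmn in cholangiocyte-like cells had 0.585 (0.354 to 0.994) at 12 weeks and 1.59 (1.01 to 2.62) at 24 weeks.

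Cd63 at 24 weeks also ran in opposite directions in 2 cell classes, with 11.4 (6.38 to 22.9; 4.98 with thinned cells) in the macrophage clusters and 0.334 (0.209 to 0.536) in classical monocyte-like cells, a difference that was not tested. The chow side held 11 UMIs in the macrophage clusters, 10 of them in 1 cell, and 38 UMIs in 3 classical monocyte-like cells, 20 of them in 1 cell.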

How the results depend on the processing

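No paired analysis was possible because each group was 1 library and no test was made. Of the values that answer a comparison, 167 stayed within their limits and 54 moved. Of the values for single members, 317 stayed, 26 moved and 10 changed sides of 1, and the cause was not tested. Clusters were named anew with no doublet removal, the stricter filter and resolution 0.5, so classes there held partly other cells. With no doublet removal the macrophage pool took in the Saa3 Prg4 cluster. At resolution 0.5 it took in that cluster and left out the Il1rn Clec4e cluster, which stayed unnamed. Counts under the alternatives are given without the share of all genes tested. In the macrophage pool, the count of members higher in MASH at 12 weeks was 2 with cells thinned to 1000 UMIs (15 members past the filter), 3 with at least 30 predicted UMIs, 3 at 2-fold, 11 with TMM factors and 19 with no filter on low counts; the count lower was 1 with no doublet removal, 1 with the stricter cell filter and 2 with no filter. At 24 weeks the count higher was 4 with thinned cells (12 past the filter), 21 with TMM factors and 22 with no filter; the count lower was 1 with chow hashtags 1 to 4, 1 with the chow cluster mix and 4 with no filter, and the other lysosome genes higher at 2-fold numbered 4. In classical monocyte-like cells the members past the threshold at 12 weeks, 1 as reported, were 5 with no doublet removal, 4 with the stricter filter, 0 with single-hashtag cells, 2 with thinned cells, 3 with TMM factors, 4 with no filter, 0 at 2-fold, 7 at resolution 0.5 and 2 without hashtag 5. At 24 weeks, 5 as reported, they were 8 with chow hashtags 1 to 4, 8 with no filter, 3 with at least 30 predicted UMIs and 3 at 2-fold.

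Trem2 Lpl macrophage-like cells were not set against Kupffer-like cells with no doublet removal, the stricter filter or resolution 0.5, where the clusters were not separate. Under the other settings, the 12-week count higher was 6 thinned (26 past the filter) and 7 at 2-fold, and lower 5 with no filter. The 24-week count higher was 4 thinned (16 past the filter), 7 with at least 30 predicted UMIs and 7 at 2-fold, and lower 2 with TMM factors, 1 with at least 30 predicted UMIs and 2 at 2-fold. The macrophage pool over T-cell-like cells had a 12-week median log2 ratio of 1.89 with no doublet removal. The summed share of the pool was, in 12-week MASH, 1.75% with no doublet removal, 2.19% with the stricter filter, 1.83% thinned, 1.83% at resolution 0.5 and 2.19% without hashtag 5; in 12-week chow 1.46% thinned and 1.38% at resolution 0.5; in 24-week MASH 2.11% with no doublet removal, 2.22% with the stricter filter, 1.89% thinned and 2.34% at resolution 0.5. Unthinned, cells with a UMI made up 27.8% (12-week MASH) and 35.9% (24-week MASH) for Gpnmb, and 87.2% (12-week MASH), 80.8% (24-week MASH) and 77.8% (24-week chow) for Lamp1.

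Ratios that changed sides were, at 12 weeks, Atp6ap1 (0.950), Cd63 (1.00) and Tfeb (0.533) with no doublet removal, Atp6ap1 (0.817) and Grn (0.938) thinned, and Atp6ap1 (0.919) and Tfeb (0.323) at resolution 0.5; at 24 weeks, Lamp1 (0.998) thinned; and in Trem2 Lpl macrophage-like over Kupffer-like cells, Mitf (0.958) at 12 weeks and Tfe3 (0.812) at 24 weeks, both thinned. The 12-week Gpnmb ratio of MASH over chow was 2.18 with no doublet removal, 3.03 with the stricter filter and 2.50 thinned, and the 24-week Cd63 ratio was 4.98 thinned. Hashtags 5 to 8 of 24-week chow held under 10 macrophages and gave no value there. With 39 and 27 chow macrophages, members with few UMIs could not be compared between diets.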
